A study of Drosophila melanogaster with 4 samples.

Results

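Of the 7181 distinct small RNA sequences in the 4 deposited lists, 194 stood on 2 or more lines of at least 1 list, and the other 6987 were listed once. The 194 were taken by that rule alone, each counted once per list with the read count written beside it. Each of their lines in a list carried an identical count, and for 194 of 194 the number of lines was equal in every list that held the sequence. They fell into 10 groups, all of them forms of miRNA arms, or of stretches of arms, that more than 1 fly gene has in common. The groups were miR-2a-3p, miR-2b-3p, miR-13b-3p, shorter forms common to several of these, miR-2-5p, miR-276-5p, miR-281-3p, miR-6-3p and both arms of miR-983. The most read of the 194 sequences was the 22-nt miR-2b-3p with Ago1, and with Ago2 it was a 17-nt form of miR-276-5p.

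The libraries came from whole male flies of the genotype FLAG-HA-Ago2, raised at 25 °C and aged to 3 d or 30 d. Ago1-bound RNA was recovered with an antibody against Ago1 (Abcam ab5070), and Ago2-bound RNA with anti-FLAG M2 beads through the tag that flies of all 4 groups carry. The protein and the reagent used to recover it therefore cannot be told apart. Each of the 4 groups (Ago1 or Ago2, 3 d or 30 d) had 1 library, made from the small RNA fraction with the TruSeq small RNA kit, so no difference below has a replicate check. The lists hold small RNAs only, so the tag, the sex and the tissue were not checked against marker genes.

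Fly miRNAs are cut from hairpin precursors into a duplex of a 5p and a 3p arm, and one strand is kept by an Argonaute protein. Most miRNA guides enter Ago1, often with U as first base, while Ago2 takes short interfering RNAs and many partner strands and has its guides methylated at the 3' end. Bases 2 to 8 of the guide, the seed, carry most of the pairing to target mRNAs, so a shift of the 5' end by 1 base gives another seed. A hairpin present in several gene copies gives identical mature sequences, and a read cannot then be assigned to 1 copy.

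The sequences below are the most read form of each group with a sequence shown, and the forms on which the length and start results turn. They are written 5' to 3' with T for U, and capitals mark the seed. The miRNA names are background knowledge, and chromosomes are those of the genes in the RefSeq gene table (Release 6).
miR-2b-3p, 22 nt: tATCACAGccagctttgaggag
miR-2b-3p, 21 nt, start +1: aTCACAGCcagctttgaggag
miR-2a-3p, 24 nt: tATCACAGccagctttgatgagct
miR-2a-3p, 20 nt, start +2: tCACAGCCagctttgatgag
miR-13b-3p, 23 nt: tATCACAGccattttgacgagtt
miR-2a/2c-3p, 20 nt: tATCACAGccagctttgatg
miR-2a/2b/2c-3p, 18 nt: tATCACAGccagctttga
miR-13a/13b-3p, 17 nt: tATCACAGccattttga
miR-276-5p, 17 nt: aGCGAGGTatagagttc
miR-276-5p, 18 nt: aGCGAGGTatagagttcc
miR-276-5p, 22 nt: aGCGAGGTatagagttcctacg
miR-983-5p, 21 nt: aTAATACGtttcgaactaatg
miR-983-3p, 21 nt: aTTAGGTAgttacgcattatc
miR-2-5p, 19 nt: tCAAAGTGgttgtgaaatg

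The miR-2a and miR-2b genes lie on chromosome 2L, miR-2c and miR-13a on 3R, the miR-13b copies on 3R and X, the miR-276 pair on 3L and the miR-983 pair on X. In the order of annotated miRNA genes mir-2a-1, mir-2a-2 and mir-2b-2 are neighbours, as are mir-13b-1, mir-13a and mir-2c, while mir-2b-1 and mir-13b-2 stand apart. The number of lines followed how much of the sequence the copies have in common. The 18-nt form above stops before the base at which miR-2b differs from miR-2a and miR-2c, and it stood on 5 lines. The 20-nt form reaches past that base and stood on 3 lines, and the 24-nt miR-2a-3p, which miR-2c does not hold, stood on 2.

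In all, 177 sequences stood on 2 lines, 14 on 3 and 3 on 5. For 193 of 194 the number of lines was that of the annotated genes under the name given. The exception was the 23-nt form of miR-6-3p, on 2 lines with 3 genes. Names were given with the line numbers in view, so this match is a description. A second measure did not use names. For 134 of the sequences a form 1 base longer at the 3' end was also listed, and the lines of the longer forms summed to those of the shorter form in 128 cases, to fewer in 6 and to more in 0. In 11 cases the longer forms split the lines between 2 or more sequences, and the sum was equal in 11 of 11. At the 5' end the sums were equal for 117 of 120 and lower for the other 3. If each line stands for 1 place in the genome, a sum cannot be higher than the lines of the shorter form. Many of these forms also overlap each other, so the cases are not separate checks, and this measure is a description too.

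RefSeq annotates 8 sets of numbered miRNA copies, of which 6 gave sequences listed more than once. The other sets, mir-10404 and mir-4966, gave none. With mir-2c, mir-13a and the miR-276 pair, which are not numbered copies, 17 of 262 annotated miRNA genes were named for the 194 sequences.

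Longer forms that run past the common stretch tell some copies apart, and 94 sequences listed once held one of the 194 within them. Among them were forms 1 base longer than the 24-nt miR-2b-3p and miR-2a-3p, 1 ending in U and 1 ending in A for either miRNA. Capitals mark that last base here.
miR-2b-3p copy form ending in U: tatcacagccagctttgaggagcgT
miR-2b-3p copy form ending in A: tatcacagccagctttgaggagcgA
miR-2a-3p copy form ending in U: tatcacagccagctttgatgagctT
miR-2a-3p copy form ending in A: tatcacagccagctttgatgagctA
For miR-2b-3p, 333 of 384 such reads ended in U with Ago1 at 3 d (86.7%, 95% Wilson interval 83.0 to 89.8) and 389 of 434 at 30 d (89.6%, 86.4 to 92.2). For miR-2a-3p the U form made up 91 of 106 reads at 3 d (85.8%, 78.0 to 91.2) and 56 of 64 at 30 d (87.5%, 77.2 to 93.5). The form ending in U was thus the more read one in both Ago1 libraries for either miRNA. With Ago2 the reads were few, 6 against 0 and 10 against 1 for miR-2b-3p, and 0 for miR-2a-3p. Which gene copy each form comes from was not read from a genome, and a base added after cutting gives the same letters. All intervals in this text are at 95% and cover counting error only, since reads copied in PCR cannot be told from separate molecules.

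Values in the 4 libraries are given below in the order Ago1 3 d, Ago1 30 d, Ago2 3 d, Ago2 30 d. The lists held 26636441, 26451651, 13491805 and 34554191 reads. Levels are reads per 1000000 listed reads (RPM), so 3 reads, the floor used here, stood for 0.0868 to 0.222 RPM. Sequences listed more than once made up 0.923% of listed reads with Ago1 at 3 d (0.919 to 0.927) and 0.856% at 30 d (0.852 to 0.859). With Ago2 they made up 0.0333% at 3 d (0.0324 to 0.0343) and 0.143% at 30 d (0.142 to 0.144). The lists held 152, 145, 76 and 97 of the 194. All 4 lists held 53 of them (27.3%), where they held 22.7% of all 7181 sequences. Only the Ago1 lists held 86 (44.3%, against 31.8% of all) and only the Ago2 lists 22 (11.3%, against 28.8% of all). The most read of these last sets had 145 and 19 reads summed over its lists.

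By number of sequences, those listed more than once were 16 to 27 nt long with a median of 20 nt, and those listed once 16 to 44 nt with a median of 21 nt. The first base was A in 38.7% of them, C in 19.6%, G in 8.25% and U in 33.5%, against 29.5%, 19.5%, 18.6% and 32.3% of the sequences listed once. By reads the picture differed between the proteins. With Ago1, U began 85.3% and 86.6% of their reads, where the figures for sequences listed once were 75.2% and 73.8%. With Ago2, A began 66.2% and 87.8% of their reads, against 53.4% and 61.5%. Their mean length by reads was 22.2 nt in both Ago1 libraries, but 20.2 nt with Ago2 at 3 d and 18.3 nt at 30 d, where sequences listed once stood at 23.1 and 22.9 nt. Reads of at most 18 nt made up 0.142% and 0.225% of their Ago1 reads and 38.6% and 72.9% of their Ago2 reads. The same share in sequences listed once stayed between 0.110% and 0.314% in the 4 libraries. Both the A start and the short length with Ago2 lay mostly in 1 group, miR-276-5p, which held 66.1% and 88.1% of these reads with Ago2 but 0.570% and 0.482% with Ago1.

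**Figure D1:**
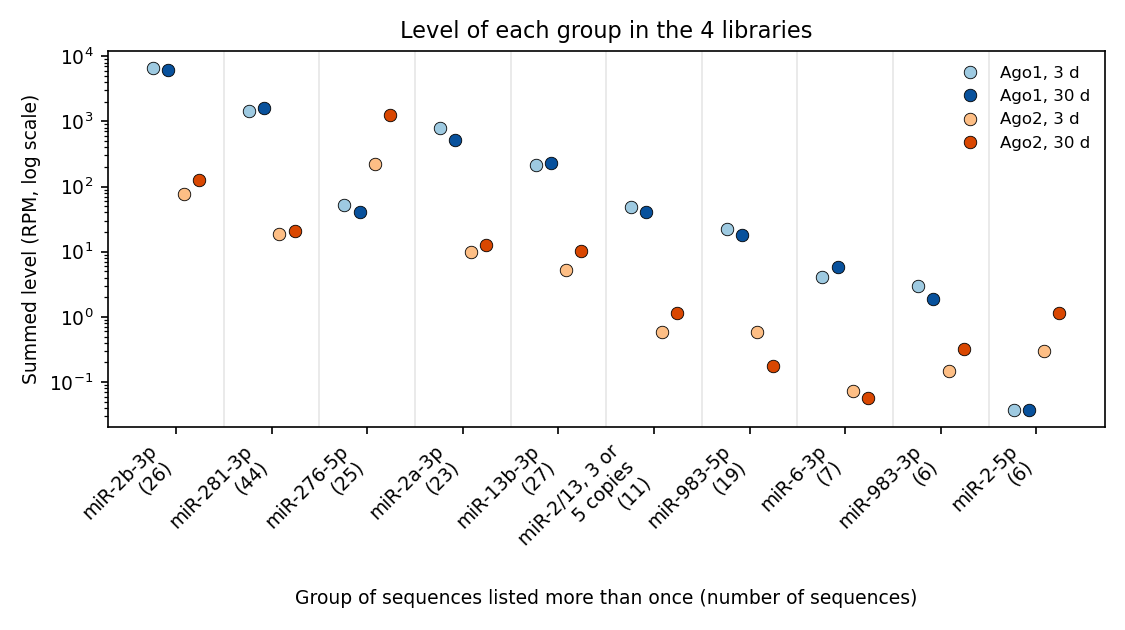
Summed level of each group in RPM on a log scale, 1 point per library, with the number of sequences in brackets. The miR-276-5p and miR-2-5p points for Ago2 lie above those for Ago1, and in the other groups they lie below.

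The miR-2 and miR-13 family carries the K box seed ATCACAG and is known to repress the cell death genes reaper, grim and sickle. The 26 forms of miR-2b-3p summed to 6627 and 6108 RPM with Ago1, and to 77.2 and 124 RPM with Ago2. The 23 forms of miR-2a-3p summed to 795, 520, 9.93 and 12.6 RPM, and the 27 forms of miR-13b-3p to 213, 226, 5.19 and 10.3 RPM. The family thus took a larger share of the Ago1 lists than of the Ago2 lists at both ages. This does not give how its molecules divide between the proteins. miR-2b-3p alone gave 71.8% and 71.4% of the Ago1 reads of sequences listed more than once. The 11 shorter forms common to 3 or 5 copies summed to 49.1, 41.3, 0.593 and 1.13 RPM. Nearly all of that was the 20-nt miR-2a/2c-3p, with 1257, 979, 5 and 20 reads. The 3 forms on 5 lines had between 0 and 7 reads in a library.

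The 44 forms of miR-281-3p summed to 1464, 1595, 18.8 and 20.8 RPM, second to miR-2b-3p with Ago1. The 19 forms of miR-983-5p summed to 22.7, 17.8, 0.593 and 0.174 RPM, and the 6 of miR-983-3p to 3.00, 1.85, 0.148 and 0.318 RPM. The 7 forms of miR-6-3p, a miRNA best known from the embryo, summed to 4.13, 5.90, 0.0741 and 0.0579 RPM. With Ago2 miR-6-3p had 1 and 2 reads, under the floor of 3. The 6 forms of miR-2-5p, the partner strand of the miR-2 guides, had 1, 1, 4 and 40 reads. In 31 longer sequences listed once that hold a miR-2-5p form, 1595, 1691, 1744 and 8855 reads were counted, so little of that arm was listed more than once.

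Ago2 was set against Ago1 as the log2 ratio of (RPM + 1), over sequences that averaged 10 RPM or more across the 2 libraries. At 3 d, 24 of the 194 reached that level. Of these, 22 were at least 2-fold lower with Ago2, where 62.9% of all sequences at that level were, and 1 was at least 2-fold higher, where 24.8% of all were. Their median was -5.28, against -2.66 for 493 sequences listed once and -2.84 for all. At 30 d, 26 reached the level, of which 22 were at least 2-fold lower (57.2% of all sequences) and 4 at least 2-fold higher (28.9% of all), with a median of -4.78 against -1.71 for sequences listed once. Those that reached the level had to be high in at least 1 of the libraries and do not stand for the 194. Many of them are length or start forms of the same arm, so they are not separate cases. The 4 comparisons also share libraries, 2 by 2, so they are not independent of each other.

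**Figure D2:**
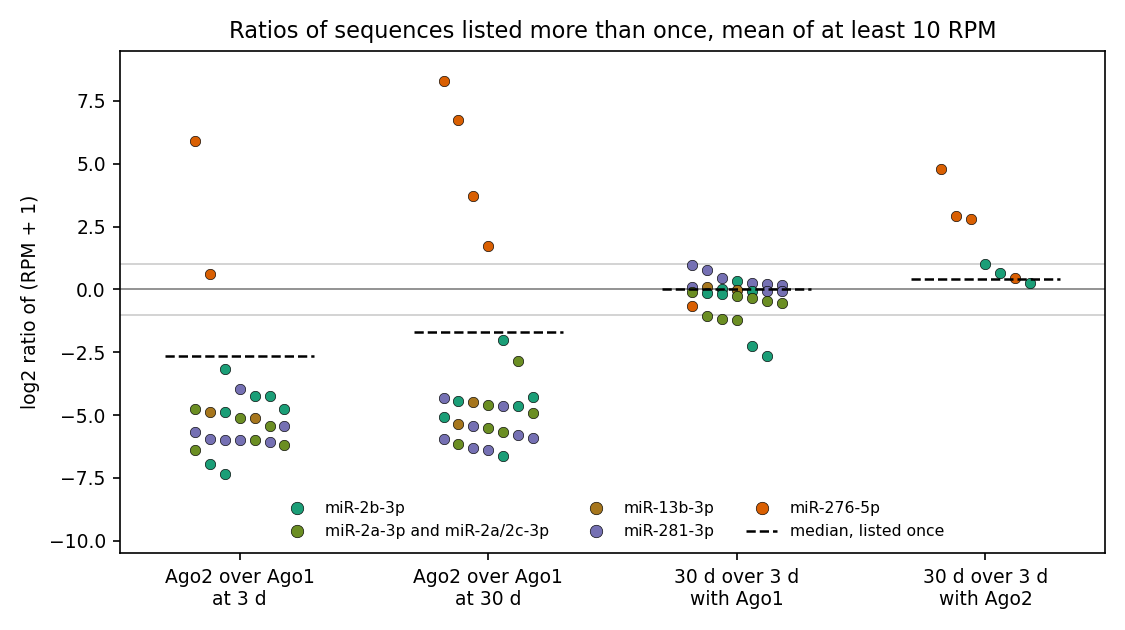
Log2 ratio of (RPM + 1) of each sequence listed more than once averaging 10 RPM or more, by comparison and coloured by group. Dashed lines are the median of sequences listed once and grey lines mark 2-fold. In the Ago2 over Ago1 columns only miR-276-5p lies above 0. With Ago1 the lowest age points are start-shifted miR-2b-3p forms.

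Each of the 22 lower sequences at 3 d was a form of miR-2b-3p (7), miR-2a-3p (5), miR-13b-3p (2), miR-2a/2c-3p (1) or miR-281-3p (7). The 22-nt miR-2b-3p had 145757 and 138982 Ago1 reads and 438 and 1792 Ago2 reads, or 5472, 5254, 32.5 and 51.9 RPM. Its log2 ratio was -7.35 at 3 d and -6.64 at 30 d, or -7.40 and -6.66 without the added 1 RPM. Its place among the lowest ratios depended on that addition. Without it the 21-nt miR-2b-3p of start +1 was lower at 3 d, at -8.01 on 12 Ago2 reads, and the 21-nt miR-2b-3p at 30 d, at -7.79 on 6. The form 1 base longer was less low. The 23-nt miR-2b-3p stood at 214, 192, 22.7 and 46.3 RPM, with ratios of -3.18 and -2.03, and the 24-nt form had -4.87 and -4.43. With totals that leave out the 10 most abundant sequences of any library, the 23-nt ratio at 30 d was -0.89, so it was no longer 2-fold lower. The 23-nt miR-2a-3p had ratios of -4.77 and -2.87, where its 22-nt form had -6.01 and -4.92 and its 24-nt form -6.21 and -5.69. In both miRNAs the 23-nt form thus stood closest to Ago2 among the 22-, 23- and 24-nt forms with the full 5' end.

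For miR-281-3p the 23-nt form was the most read, at 710, 674, 9.56 and 9.78 RPM, with ratios of -6.07 and -5.97. Its 8 forms at the level at 30 d ran from -6.39 to -4.33. Its 20-nt form of start 0 had ratios of -3.98 and -4.63. The Ago2 counts behind these ratios were often under 100 reads, and the added 1 RPM draws them towards 0.

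Among groups with forms averaging 10 RPM or more, miR-276-5p was the exception. miR-276 is known from work on memory and on circadian behaviour. Only its 5p arm was among the sequences listed more than once, so the values here do not cover its 3p arm. The 5p arm begins with A, is identical in miR-276a and miR-276b, and was listed in 25 forms. They summed to 52.6 and 41.2 RPM with Ago1, and to 220 and 1261 RPM with Ago2. Ago2 thus stood above Ago1 by log2 2.05 at 3 d and 4.90 at 30 d. Length set the forms apart. The 22-nt form stood at 46.9, 29.0, 72.3 and 99.7 RPM, with ratios of 0.61 and 1.75. The 17-nt form stood at 1.01, 1.70, 121 and 857 RPM, with ratios of 5.92 and 8.31. The 18-nt form stood at 0.0751, 0.643, 5.34 and 174 RPM, with a ratio of 6.74 at 30 d, and the 19-nt form at 2.18, 6.99, 13.1 and 105 RPM, with 3.73. The 22-nt form was thus the main one with Ago1 at both ages, and the 17-nt form the main one with Ago2.

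**Figure D3:**
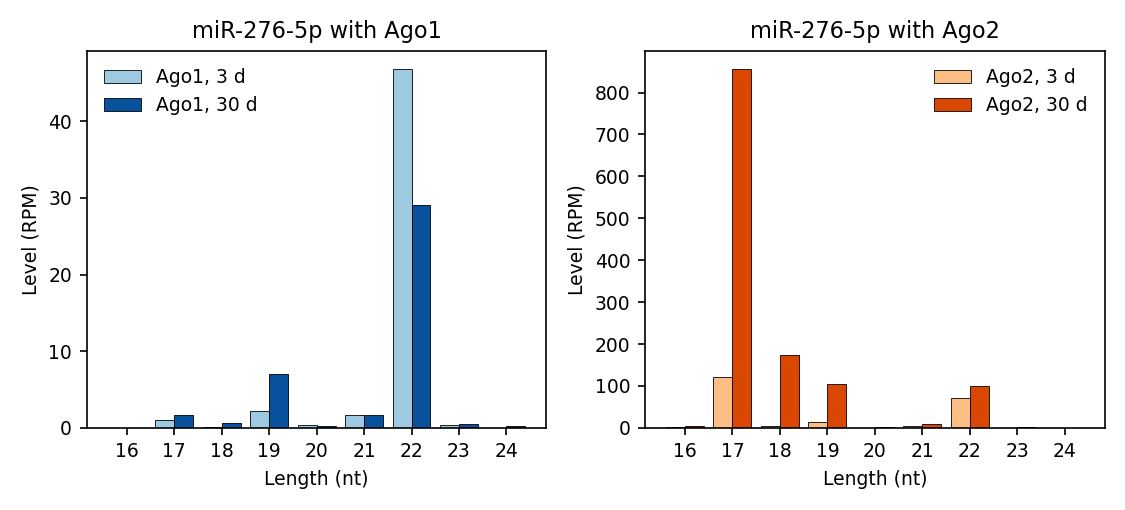
Level of miR-276-5p in RPM by read length, with Ago1 on the left and Ago2 on the right. The vertical scales differ. The highest bars are at 22 nt with Ago1 and at 17 nt with Ago2, where the 17-nt bar is 121 RPM at 3 d and 857 RPM at 30 d.

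Forms of 16 to 18 nt made up 2.21% (1.56 to 3.12) and 5.69% (4.46 to 7.23) of the Ago1 reads of miR-276-5p, and 58.0% (56.2 to 59.8) and 82.4% (82.1 to 82.8) of its Ago2 reads. The share was higher with Ago2 than with Ago1 at either age, and higher at 30 d than at 3 d with either protein. Of all 17-nt reads in the Ago2 lists, miR-276-5p gave 34.5% at 3 d and 68.6% at 30 d, against 0.327% and 0.482% in the Ago1 lists. Among 69 groups of overlapping sequences with at least 1000 reads in both Ago2 libraries, its share of 16- to 18-nt reads ranked 1 at both ages. The next was 32.8% at 3 d and 82.3% at 30 d, and the median of the other 68 was 0.125% and 0.389%. Of those 68, 59 had a higher share at 30 d, so a higher share of short reads with Ago2 at 30 d was common in the lists. What part size selection, RNA breakdown or the library played in this was not tested.

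With Ago2, 7 of the 194 reached the level in the age comparison. At least 2-fold higher at 30 d were 3, where 27.6% of all 384 sequences at that level were, and 0 were at least 2-fold lower, where 7.03% of all were. The median of the 7 was 0.999, against 0.43 for 377 sequences listed once. The 3 were the short miR-276-5p forms. The 17-nt form had 1627 reads at 3 d and 29612 at 30 d, a log2 difference of 2.82. The 18-nt form had 72 and 6026 reads, or 4.79, and the 19-nt form 177 and 3624 reads, or 2.91. The 22-nt form had 975 and 3446 reads, or 0.46, so the ratio differed between lengths of one arm. Without the added 1 RPM, the 17-nt difference was 2.83 (2.76 to 2.90) and the 22-nt one 0.46 (0.36 to 0.57), which do not overlap. The 22-, 23- and 24-nt forms of miR-2b-3p stood 0.66, 0.999 and 0.26 higher at 30 d with Ago2, the 23-nt form just under the 2-fold line, which it passed with an added 0.1 RPM (1.03) and with lines summed (1.01).

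With Ago1, 27 of the 194 reached the level in the age comparison. At least 2-fold lower at 30 d were 5, or 18.5% of the 27, where 13.4% of all 529 sequences at that level were, and 0 were at least 2-fold higher, where 11.3% of all were. The median was -0.08, against 0.01 for 502 sequences listed once. The share of the 27 that was lower is close to that of all sequences, and the sum over the 194 differed by -0.11. The 5 were of 2 kinds. The first kind was miR-2b-3p without its first U. The 21-nt form of start +1, whose seed is TCACAGC, had 6127 reads at 3 d and 942 at 30 d with Ago1, or 230 and 35.6 RPM, a log2 difference of -2.66. The 23-nt form of start +1 had 627 and 109 reads, or -2.26. The 22-nt form with the full 5' end differed by -0.06.

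The same start was lower in the other family members. Starts were counted from the most read form of each group and were not set against annotated 5' ends. Forms of start +1 made up 3.91% of miR-2b-3p reads with Ago1 at 3 d (3.82 to 4.0) and 0.665% at 30 d (0.627 to 0.706). In miR-13b-3p they made up 3.86% (3.39 to 4.39) and 0.568% (0.407 to 0.792). In miR-2a-3p, without the forms in common with miR-2c, they made up 1.04% (0.911 to 1.18) and 0.444% (0.346 to 0.569). In miR-281-3p, whose main form begins with C, forms of start +1 made up 32.7% (32.2 to 33.1) and 35.6% (35.1 to 36.0). The share was thus lower at 30 d in the 3 miR-2 and miR-13 arms and higher in miR-281-3p. Sequences listed once showed the same split at the level used. Where the main form began with UA, 16 forms of start +1 had a median age difference of -1.91 with Ago1, and 13 of the 16 were at least 2-fold lower. Where it began with U and another base, 17 had a median of -0.44 with 1 at least 2-fold lower, and where it did not begin with U, 25 had a median of -0.05 with 2. Forms of 1 arm that differ in length count separately here, so they are not separate cases, and the number of arms is not given. The grouping by the first 2 bases was chosen after these values were seen. What part the library or its adapter step played was not tested.

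**Figure D4:**
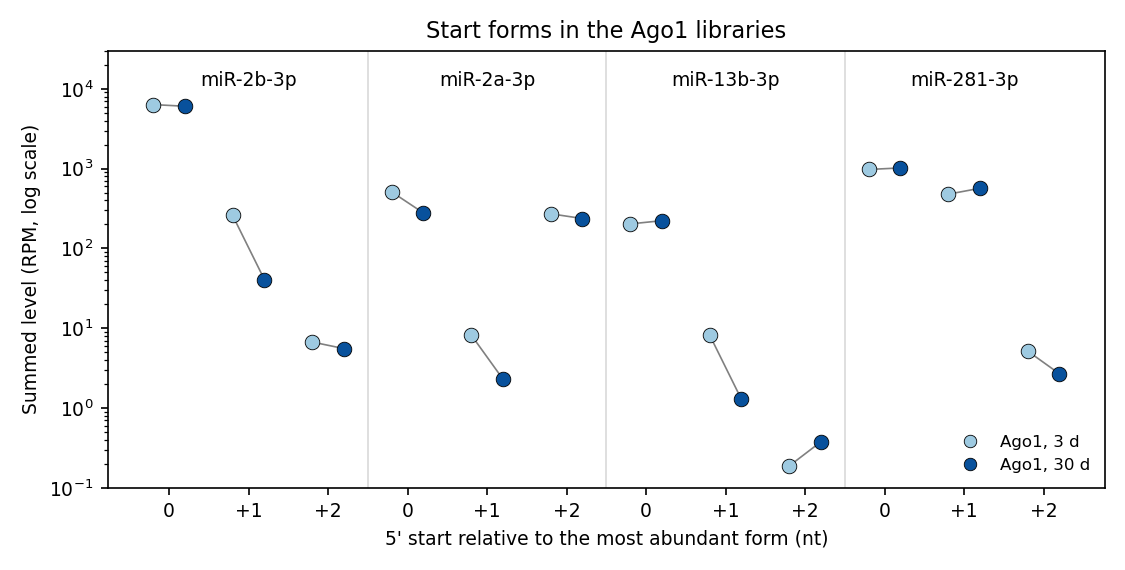
Summed level in RPM on a log scale of the forms of 4 arms in the Ago1 libraries, by the 5' start relative to the most read form, with a line joining 3 d and 30 d. The start +1 forms of miR-2b-3p, miR-2a-3p and miR-13b-3p lie lower at 30 d, and those of miR-281-3p do not.

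The second kind was miR-2a-3p with its full 5' end. Its 21-, 22- and 23-nt forms differed by -1.07, -1.18 and -1.20 between 30 d and 3 d with Ago1, from 19.2, 140 and 131 RPM to 8.66, 61.0 and 56.5 RPM. The 24-nt form differed by -0.54, from 221 to 152 RPM. Forms of start +2, whose seed is CACAGCC, were a large part of miR-2a-3p but not of miR-2b-3p or miR-13b-3p. They made up 34.2% of its Ago1 reads at 3 d (33.5 to 34.8) and 45.6% at 30 d (44.8 to 46.4), against 0.101% and 0.0910% in miR-2b-3p and 0.0881% and 0.167% in miR-13b-3p. The miR-2a-3p shares leave out full 5' end forms of 20 nt or less, which miR-2c has in common, but include the 20-nt form of start +2. The 20-nt miR-2a/2c-3p left out had 1257 and 979 Ago1 reads, a difference of -0.34. The 20-nt form of start +2 stood at 153 and 143 RPM, a difference of -0.10. Summed over the lengths counted as miR-2a-3p, start +2 differed by -0.20 and the full 5' end, of 21 to 24 nt, by -0.88. With Ago1 the full 5' end of these lengths thus stood further down at 30 d. With Ago2 it stood 0.42 higher at 30 d. There start +2 made up 27.6% of miR-2a-3p reads at 3 d (20.7 to 35.7, 37 reads) and 20.7% at 30 d (17.2 to 24.8, 90 reads), and these intervals overlap. The highest differences with Ago1 were in miR-281-3p, where the 20-nt forms of start 0 and +1 stood 0.97 and 0.76 higher at 30 d and the 21-nt forms 0.47 and 0.26 higher. The 22-nt miR-276-5p stood lower, at 46.9 and 29.0 RPM, a difference of -0.67.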

How the data were processed

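Each list, as the authors deposited it, pairs small RNA sequences with raw read counts. Per the submitters' processing notes, the build was dm3 and the tools included CASAVA 1.8.2 and Bowtie, whose version is not stated. How reads were trimmed, aligned and filtered is not given in the sources used. Totals therefore cover the listed reads alone, and any ratio is set against the rest of its list. Each sequence was counted once per list and divided by the listed reads. Sequences were grouped by overlap of at least 14 nt with a more abundant one and a 5' shift of at most 8 nt. Ratios were log2(RPM + 1) at a mean of at least 10 RPM. With 1 library per group no test was made; intervals were exact binomial for ratios and Wilson for shares (SciPy 1.17.1, Python 3.11.15; tested on simulated data). TMM factors came from edgeR 4.0.16 in R 4.3.3.

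Members and lists were chosen with earlier results of these data known. Named sequences were the 10 most abundant in each library, the 5 highest and 5 lowest ratios per comparison, the 10 most abundant on 3 or more lines and the most abundant of each group. Names are recalled, and line numbers were in view. Matching to hairpin sequences was replaced by gene counts from the RefSeq table and by line sums of longer forms. Alternatives covered scaling, the minimum, the pseudocount, summed lines and stricter membership.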

Additional observations from a re-analysis of the deposited data

Results flagged for a closer look

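In 4 sequences, those averaging 10 RPM or more in both age comparisons, the log2 difference between 30 d and 3 d (without the added 1 RPM) had opposite signs with Ago1 and Ago2, each interval excluding 0. The difference between the proteins was not tested, since each group had 1 library. How many of all sequences had opposite signs was not counted. Over all sequences at the level, the median age difference with the added 1 RPM was -0.0099 with Ago1 and 0.458 with Ago2. A value above 0 with Ago2 was thus common in the lists. The miR-2b-3p forms below are lengths of 1 arm, so they are not separate cases. The 22-nt miR-276-5p differed by -0.69 (-0.82 to -0.56) with Ago1 and 0.46 (0.36 to 0.57) with Ago2. The 22-nt miR-2b-3p differed by -0.06 (-0.07 to -0.05) with Ago1 and 0.68 (0.52 to 0.83) with Ago2. The 23-nt miR-2b-3p differed by -0.15 (-0.21 to -0.10) with Ago1 and 1.03 (0.85 to 1.21) with Ago2. The 24-nt miR-2b-3p differed by -0.18 (-0.21 to -0.14) with Ago1 and 0.27 (0.07 to 0.48) with Ago2. With TMM scaling the Ago2 difference of the 24-nt form was 0.01, and with totals that leave out the 10 most abundant sequences of any library it was -0.08, so its sign depends on the scaling. The other 3 stayed above 0 with Ago2 under both, at 0.11 or more.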

How the results depend on the processing

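No value changed sign among those at least 2-fold apart. Counting on every line raised the share of listed reads to 1.83%, 1.70%, 0.0667% and 0.286% (Ago1 3 d, Ago1 30 d, Ago2 3 d, Ago2 30 d), by construction. Keeping only sequences on 3 or more lines left 17, with 0.00530%, 0.00472%, 6.67e-05% and 0.000119% of reads. Scaling moved the median of all sequences: TMM by 0.82 (Ago2 over Ago1 at 3 d), 0.72 (at 30 d), -0.12 (age with Ago1) and -0.26 (age with Ago2), and totals without the 10 most abundant sequences of any library by 1.33, 1.11, -0.05 and -0.35. At 3 d, both scalings and summed lines gave 2 sequences at least 2-fold higher with Ago2. The median of Ago2 over Ago1 at 30 d was -4.22 with TMM, and that of age with Ago2 was 0.75 with TMM and 0.68 with the other totals, where 80 sequences of all were higher and 46 lower, against 106 and 27. Totals without the 10 most abundant sequences left 21 lower with Ago2 at 30 d, in place of 22, without the 23-nt miR-2b-3p. By age with Ago2, 4 in place of 3 were higher with a pseudocount of 0.1 RPM (of 7) and with summed lines (of 10). A pseudocount of 0.1 RPM gave medians of -6.13 and -5.81 for Ago2 over Ago1 at 3 d and 30 d. With no minimum more sequences enter, and the medians were -0.29 and -0.19, with 4 higher and 48 lower of 164 at 3 d (353 and 804 of all 5319) and 10 and 48 of 168 at 30 d (445 and 741 of 5813). Age then gave 4 higher and 10 lower of 172 with Ago1 (120 and 146 of 5113), and 6 higher of 108 and a median of 0.041 with Ago2 (261 higher of 4894). With a minimum of 100 RPM few remain: a median of -6.07 with 0 higher and 7 lower of 7 at 3 d (49 and 126 of all 192), 1 higher and 5 lower of 6 at 30 d (55 and 131 of 209), 2 lower of 13 by age with Ago1 (20 of 216), and 1 higher of 1, at 2.82, by age with Ago2 (31 of 132).

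No paired analysis was possible because each group has 1 library, and leaving out a replicate leaves none. The Ago2 3 d list is the smallest, at 13491805 reads, and many Ago2 counts of miR-2, miR-13, miR-281 and miR-983 forms are under 100 reads, which limits their ratios. Sequencing depth before the filters is unknown.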
